A study of Bactrocera dorsalis with 6 samples.

Results

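The oriental fruit fly, Bactrocera dorsalis, is a tephritid pest whose pupa takes apart larval tissues, builds the adult body and lays down the adult cuticle, while the adult male feeds, flies, finds mates and resists microbes. The data described here are the 2 libraries of pupae and virgin adult males, taken by stage label from the 6 libraries of the series (the others are eggs, larvae, virgin adult females and mated females, with 1 library each). All flies came from the laboratory colony Punador and were reared on liquid artificial diet with no treatment, and the adults had sugar water and yeast. The pupal library is a pool in equal amounts of RNA extracted daily over the pupal stage, with no separation by sex described. The male library is a pool of daily extractions from unmated males, sexed at emergence, over the days of adult maturation. RNA was from whole animals, so fewer cells of a type and less RNA per cell cannot be told apart, and a stage pool averages over early and late days. With 1 library per stage, no difference has a replicate check and no test was run. The values are a description of these 2 libraries.

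The authors assembled the reads without a genome into unigenes, each holding 1 or more isoforms, and deposited expected read counts from RSEM, which shares reads among similar transcripts. Expected counts summed to 7857995 in pupae and 9905262 in males. Levels are given as CPM, the counts divided by the library total and scaled to 1000000 counts, which do not correct for transcript length, so they are compared between libraries and not between genes. Ratios printed as folds are of CPM, with exact 95% intervals that cover counting error only and not the spread between animals or pools. A count of 0 allows up to 3 counts, or 0.382 CPM in pupae and 0.303 CPM in males, and folds against 0 are lower bounds at that floor. A unigene was called different when its (CPM + 1) differed at least 4-fold and the 2 libraries together held at least 10 counts. Names are those that the additional files of the study pair with a unigene, from D. melanogaster or Swiss-Prot matches, and roles are those known in D. melanogaster unless another source is named. Only part of the FlyBase and Swiss-Prot tables was used here, so a list made from them holds the members named in that part and need not be the whole family, and a unigene without a name may have one elsewhere.

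Stage markers were looked at first. Lsp2 (comp28303_c1), a storage protein of the larval and pupal fat body, stood at 21645 CPM in pupae and 849 CPM in males. Cp19 (comp24503_c0), an eggshell protein, had 1 count in pupae and 4 in males, against 12700 in the mated females. Mf (comp29730_c1), the muscle protein myofilin, was high in both libraries, at 858 CPM in pupae and 1543 CPM in males, and Hml (comp28433_c0), a clotting protein of hemocytes, was at 86.8 and 41.4 CPM. In the virgin female library the isoform shares of dsx, a sex determination gene, lay closer to the male values than to those of mated females, so it is referred to as the library labelled female and its values are given only beside those of the pair compared.

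Of 10799 unigenes, 9557 held at least 10 counts over the pair. Among these, 573 (6.0%) were at least 4-fold higher in pupae and 601 (6.29%) at least 4-fold higher in males, and 6521 (68.2%) lay within 2-fold. The median log2 ratio of pupae over males was 0.01, so the counts in the middle of the range were not shifted between libraries. The large differences leaned towards pupae: 352 unigenes were at least 8-fold higher in pupae and 248 in males, 85 against 36 passed 64-fold, and 27 against 8 passed 256-fold. At the lower fold of 2 the order was the other way, with 1305 higher in pupae and 1731 higher in males.

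**Figure D1:**
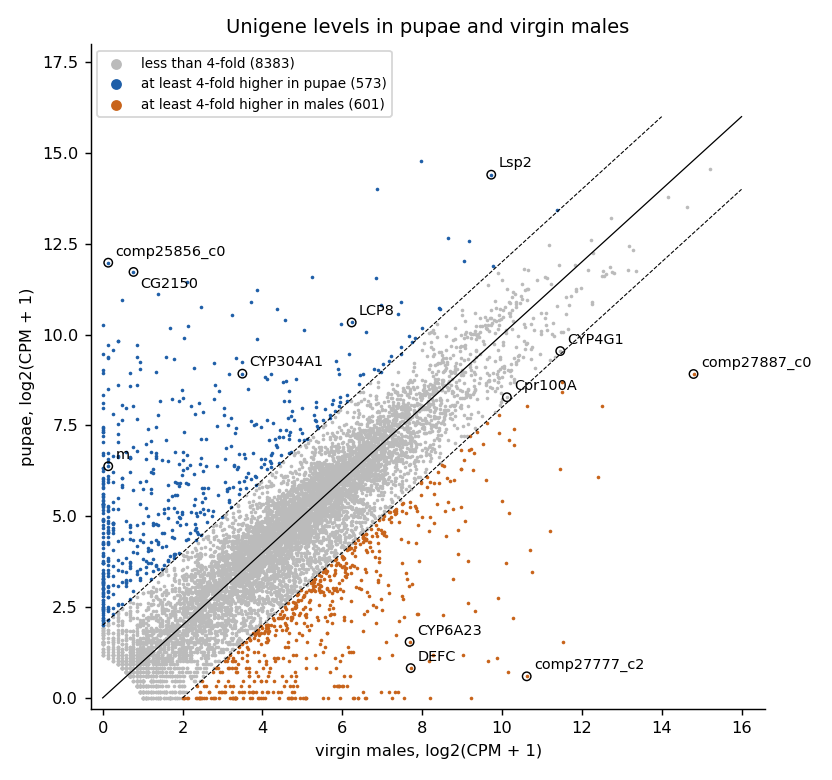
Level of each of the 9557 unigenes tested, as log2(CPM + 1), in virgin males (x axis) and pupae (y axis), 1 library each. The solid line marks equal levels and the dashed lines 4-fold. The 573 blue points are at least 4-fold higher in pupae and the 601 orange points at least 4-fold higher in males, and circles mark unigenes named in the text.

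The unigenes called higher in pupae took up 21.4% of all pupal counts and 1.34% of male counts. Those called higher in males took up 12.5% of male counts and 0.899% of pupal counts. The median level of the 573 higher in pupae was 54.7 CPM in pupae, 1.41 in males and 1.27 in the library labelled female, beside 8.83 in larvae, 4.47 in eggs and 0.334 in mated females. For 444 of them pupae were the highest of the 6 libraries, while larvae were highest for 75 and eggs for 50. The 601 higher in males had a median of 43.5 CPM in males, 17.1 in mated females and 41.5 in the library labelled female, against 3.69 in pupae, 3.21 in larvae and 0.948 in eggs. Males were the highest library for 304 of them, larvae for 113, the library labelled female for 93 and mated females for 76.

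Some unigenes had counts in only 1 library of the pair. In pupae, 117 unigenes (1.22% of those tested) had at least 20 counts with none in males, with a median of 96 counts and a highest value of 9689. Their counts in the library labelled female did not exceed 4, and 73 of them had none there. In males, 79 unigenes (0.827%) had at least 20 counts with none in pupae, with a median of 88 and a highest value of 5967. Each of these 79 had counts in the library labelled female, between 3 and 4589.

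The largest differences towards pupae were near-complete switches. The unigene comp25856_c0, matched to the D. melanogaster gene FBgn0051876, had 31730 counts in pupae and 1 in males, with 9 in larvae and 4 in the library labelled female, a ratio of 39997-fold (7178 to 1579835). For CG2150 (comp27113_c0, FBgn0003065) the counts were 26589 in pupae and 7 in males, 4788-fold higher in pupae (2324 to 11910). A further pair, comp27993_c1 (FBgn0037414) and comp27685_c0 (FBgn0037411 and FBgn0037412), had 15554 and 9689 pupal counts against 4 and 0 in males. The first of this pair was already present in larvae, with 7729 counts, while the second had 2 there. The unigene comp14329_c0 (FBgn0036677) had 7172 counts in pupae and 3 in males. Given by ID alone, comp27224_c0 had 17369 counts against 16, comp22454_c0 6530 against 1 and comp26798_c0 5571 against 0. The last was also present in eggs and larvae (1317 and 3015 counts), and comp22454_c0 had 3252 counts in mated females.

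Towards males, comp27777_c2 had 4 counts in pupae and 15567 in males, 3087-fold higher in males (1206 to 11333), and comp30055_c0 had 15 and 29372, 1553-fold higher (942 to 2776). The unigene comp21582_c0 (FBgn0034871) had 5 pupal and 11307 male counts. For comp25815_c0 (FBgn0039471), no pupal counts stood against 5967 in males, at least 1578-fold, and larvae held 651. In comp24262_c0 (FBgn0085353), 0 counts in pupae stood against 2891 in males, at least 764-fold. The unigenes comp26091_c0 and comp24834_c0 had 9 and 8 counts in pupae against 9258 and 7900 in males. The last of the set, comp25964_c0, had 28 and 12266 counts, but it matched 9 D. melanogaster genes, so its reads may come from several copies. These 8 unigenes were also high in both other adult libraries, with 2265 to 21407 counts in the library labelled female and 1197 to 30637 after mating.

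Among the unigenes with the most counts, pupae were led by comp30065_c3, with 220246 counts (2.80% of the library) against 2459 in males, 113-fold higher in pupae (109 to 118). Its larval count was 45857. Lsp2 followed the same direction with 170089 counts against 8410, 25.5-fold (24.9 to 26.1), and comp27764_c1 (FBgn0083974) had 130495 against 1149, 143-fold (135 to 152). The male library was led by comp28816_c2 (FBgn0001233) with 378295 counts (3.82%), which was also second in pupae with 188475, a male level 1.59-fold the pupal one. Next in males was comp27887_c0, with 282068 counts against 3786 in pupae, 59.1-fold higher in males (57.2 to 61.0). Its counts in the other libraries were 4589 in mated females, 195446 in the library labelled female, 267 in eggs and 111 in larvae, so mated females were far below both virgin libraries. The remaining leaders differed by less than 4-fold: comp29362_c1 had 92601 pupal and 252513 male counts, comp22806_c0 (FBgn0003360) had 27095 and 103217, and comp27198_c0, which matched 7 D. melanogaster genes, had 111501 and 181509.

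The moulting hormone 20-hydroxyecdysone is made by a chain of cytochrome P450 enzymes and drives metamorphosis, and juvenile hormone opposes it in larvae and returns in adults to control reproduction. Of the 5 P450 unigenes of ecdysteroid synthesis and breakdown, 1 was called higher in pupae, where 6.0% of all unigenes tested were, and 0 higher in males, where 6.29% were. This was CYP306A1 (comp26490_c0), an early hydroxylase of the pathway, with 37 counts in pupae and 0 in males, at least 15.5-fold but not called with deposited FPKM, while mated females held 123 and larvae 31. The later steps did not follow it. CYP302A1 (comp27663_c0) stood at 9.42 CPM in pupae and 18.5 in males, CYP315A1 (comp28589_c0) at 18.7 and 14.5 CPM, and CYP314A1 (comp26792_c0), which makes the final active hormone, at 12.2 and 20.4 CPM. CYP18A1 (comp26490_c1), which inactivates ecdysteroids, had 605 pupal and 443 male counts, 1.72-fold higher in pupae (1.52 to 1.95), and belongs to the same assembly component as CYP306A1.

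All 4 unigenes listed under juvenile hormone were called, 1 towards pupae and 3 towards males, beside 6.0% and 6.29% over all unigenes. The list was chosen with earlier results of these data known, so this share is a description and not a test. Jhe (comp28974_c0), the esterase that degrades the hormone, had 113 counts in pupae and 24 in males, 5.94-fold higher in pupae (3.79 to 9.65) but not called with deposited FPKM, and pupae held more of it than any of the other libraries. The other degrading enzyme went the opposite way: Jheh1 (comp25416_c0), an epoxide hydrolase, had 10 counts in pupae and 111 in males, 8.81-fold higher in males (4.61 to 18.9). JhI-26 (comp26947_c0), named for its induction by the hormone, was at 19.2 CPM in pupae, 95.1 in males and 74.1 in larvae. A unigene with a juvenile hormone binding protein domain (comp15270_c0) had 2 counts in pupae, 584 in males and 505 in the library labelled female.

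Insect cuticle is built from chitin and chitin-binding proteins and is sealed with hydrocarbons. Of 12 cuticle unigenes 9 had enough counts, and 3 of these were called higher in pupae (6.0% of all unigenes were) and 0 higher in males (6.29%). Their median log2 ratio was 0.68, beside 0.01 over all unigenes. LCP8 (comp14767_c0), named for a larval cuticle protein, had 10134 counts in pupae, 737 in males and only 207 in larvae, 17.3-fold higher in pupae than in males (16.1 to 18.7). The zona pellucida domain protein m (comp29850_c0) had 645 counts in pupae and 1 in males, 813-fold (145 to 32163), and Cpr49Ad (comp23689_c0), a chitin-binding cuticle protein, had 427 and 79. Cpr100A (comp28916_c2), of the same protein family, showed the reverse, with 309 CPM in pupae and 1114 in males, 3.61-fold higher in males (3.45 to 3.77) and just under the 4-fold limit. Mated females held 111 counts of Cpr100A and 0 of Cpr49Ad, well below both virgin adult libraries.

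Of the 5 P450 unigenes listed for cuticle, CYP4G15 (comp29963_c0) was called, with 1980 counts in pupae and 303 in males. It was 8.24-fold higher in pupae (7.30 to 9.33), and a role of CYP4G15 in cuticle was not tested. CYP4G1, which makes the hydrocarbons of the cuticle surface, was represented by a pair of unigenes that lay on the other side. For comp29180_c1 the levels were 747 CPM in pupae and 2815 CPM in males, 3.77-fold higher in males (3.66 to 3.88), and for comp28492_c0 they were 73.4 and 269 CPM, 3.67-fold higher (3.35 to 4.02). CYP4G1 and CYP4G15, members of 1 subfamily, thus lay on opposite sides. CYP303A1 (comp29415_c0), needed for sensory bristles, was 2.62-fold higher in pupae (2.41 to 2.85), and CYP301A1 (comp26898_c2), which takes part in forming adult cuticle, was at 196 and 198 CPM.

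**Figure D2:**
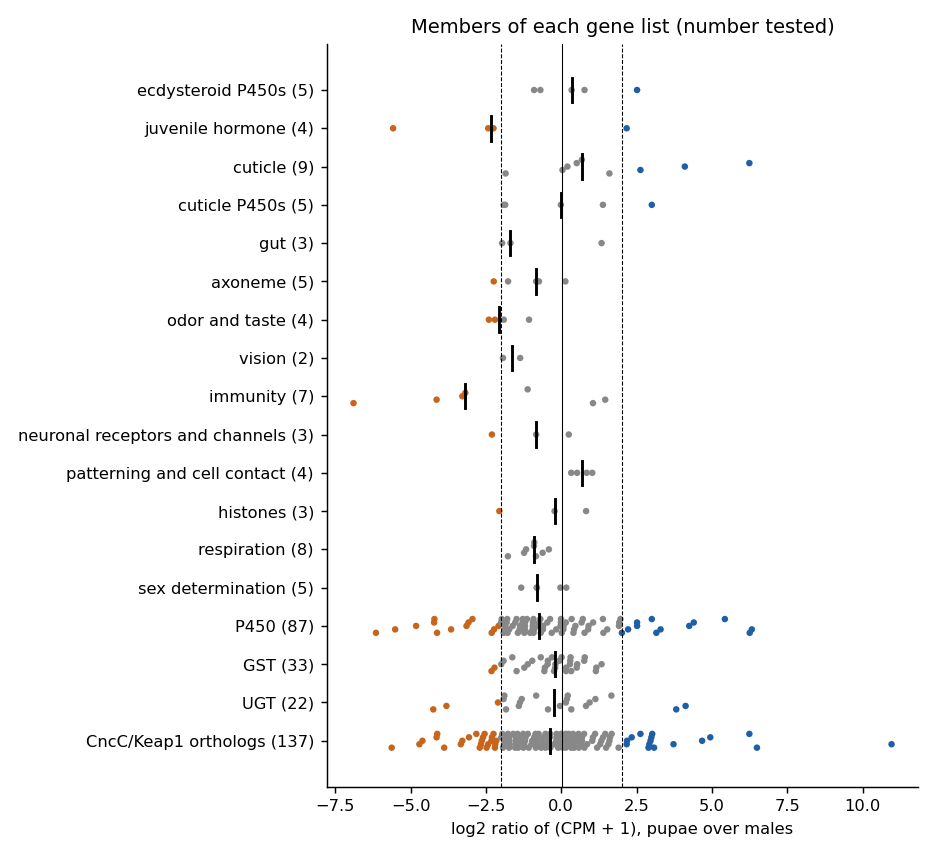
Log2 ratio of (CPM + 1), pupae over males, for each tested member (point) of the gene lists shown, with the number tested in brackets. The storage, muscle and eggshell lists, with 1 member each, are not drawn. Vertical bars are list medians, the thin line is the median of all unigenes (0.01), and dashed lines mark 4-fold, with blue points higher in pupae and orange points higher in males.

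The P450 family as a whole, which also oxidises plant toxins and insecticides, had members on both sides. Of its 92 unigenes 87 were tested, 12 (against 6.0% of all unigenes) were called higher in pupae and 13 (against 6.29%) higher in males. The median log2 ratio was -0.74, or -0.81 with counts under 3 raised to the floor, and the summed level was 5436 CPM in pupae and 9487 in males. The list was also split by family after the values were seen, and differences between families were not tested. In the CYP12 family, which is mitochondrial, 4 of 11 unigenes were called higher in pupae and 2 higher in males. In CYP6, a family known for detoxification, 4 of 28 tested were higher in pupae and 6 higher in males, in CYP4 the counts were 1 and 3 of 21, and in the remaining families 3 and 2 of 27, all beside 6.0% and 6.29% over all unigenes.

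Several of these were present in pupae almost alone. CYP12B2 (comp29210_c0) had 620 counts in pupae, 0 in larvae, males and the library labelled female, 4 in eggs and 5 in mated females, so pupae were at least 261-fold above males. Another unigene named CYP12B2 (comp30399_c0) lay on the other side, with 201 counts in pupae, 861 in males and 911 in larvae. CYP12A4 (comp26936_c0) had 771 counts in pupae and 3 in males, 324-fold (110 to 1574), with 1 in larvae. CYP304A1 (comp20781_c0), of another family, was not confined to pupae. It stood at 485 CPM in pupae and 10.3 in males, 47.1-fold higher in pupae (38.7 to 57.9). Within the CYP12 family CYP12A2 (comp25222_c0) had 174 counts in pupae against 1 in males. The unigenes named CYP12A5 were split, comp25998_c0 with 141 in pupae and 0 in males and comp26899_c0 with 1 and 198; like CYP12A2 and comp30399_c0, they were picked out after their values were seen.

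All 13 P450 unigenes called higher in males also had counts in the library labelled female, between 152 and 5318. CYP6A23 (comp26873_c0) had 15 counts in pupae, 2032 in males and 1504 in that library, 107-fold higher in males than in pupae (65.0 to 192). CYP6T1 (comp29479_c0) had 68, 4350 and 4202 counts in the same order, with 2156 in larvae, so pupae lay below the stage before and the stage after. CYP6A2 (comp22299_c0) had 0 counts in eggs, larvae and pupae and 269 in males, at least 71.1-fold above pupae. Unigenes that carry the same P450 name may be copies or fragments that share reads: another unigene named CYP6A23 (comp28515_c0, also picked after its values were seen) had 1477 counts in pupae and 181 in males, opposite to the first.

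**Figure D3:**
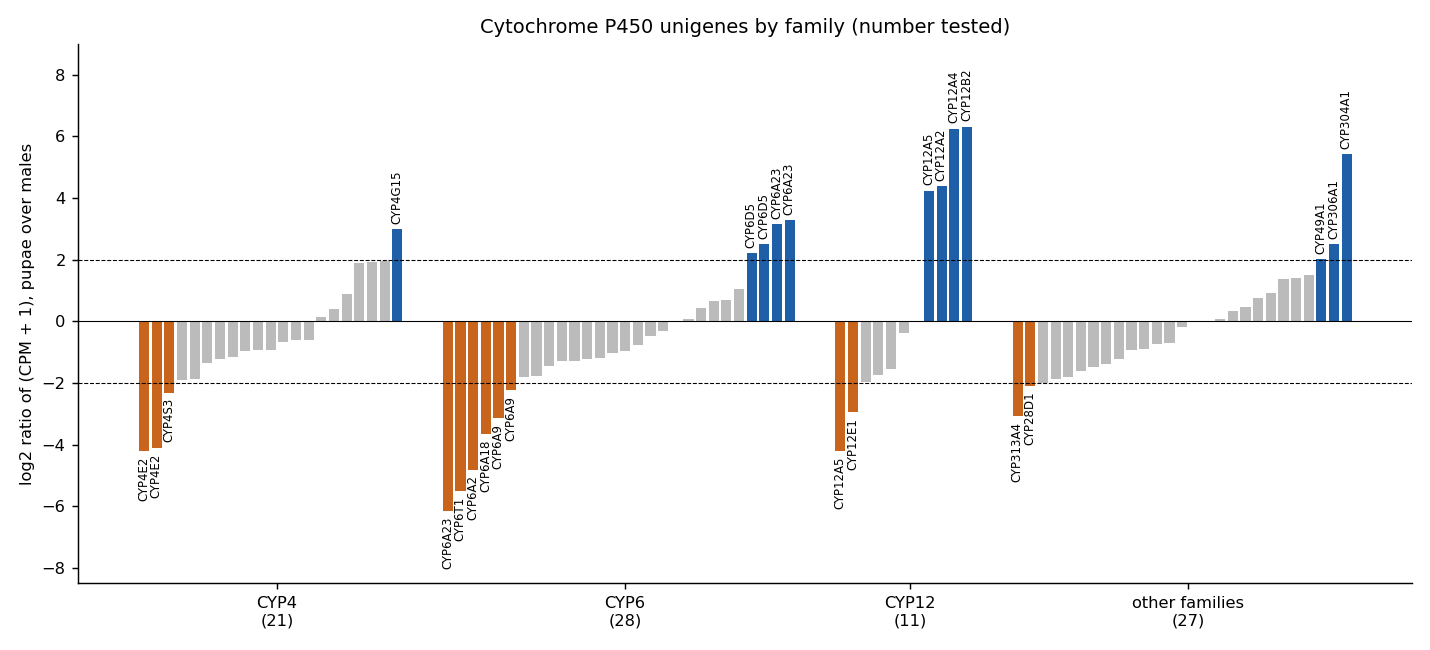
Log2 ratio of (CPM + 1), pupae over males, for each of the 87 P450 unigenes tested, sorted within families, with the number tested in brackets. Blue bars (12) are called higher in pupae, orange bars (13) higher in males, dashed lines mark 4-fold, and 4 of the 11 CYP12 bars are blue.

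Glutathione S-transferases and UDP-glucuronosyltransferases attach small groups to toxins and hormones so that they can be excreted. Of 34 GST unigenes 33 were tested, 0 were called higher in pupae and 2 higher in males, with a median log2 ratio of -0.20. The male count is near the 6.29% of all unigenes, and the pupal share over all unigenes is 6.0%. The 2 called were low: comp26383_c0 had 8 counts in pupae and 83 in males, and comp30232_c1 had 6 and 77. The third in that direction, comp24099_c0, was at 4.96 CPM in pupae and 22.7 in males. On the pupal side the differences were small, 2.26-fold (2.03 to 2.53) for comp25797_c0, 2.22-fold (2.12 to 2.32) for comp30243_c0 and 1.72-fold (1.68 to 1.76) for comp27062_c0. The last was among the highest of the family, at 2093 CPM in pupae and 1220 in males, and the GST list summed to 6219 CPM in pupae and 5427 in males.

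Of 23 UGT unigenes 22 were tested, 2 were called higher in pupae and 3 higher in males (6.0% and 6.29% of all unigenes), with a median log2 ratio of -0.24. The unigene comp19619_c0 had 129 counts in pupae and 0 in males, at least 54.2-fold, with at most 4 in any other library. A second, comp27327_c0, had 359 and 23 counts, 19.7-fold higher in pupae (12.9 to 31.4). On the male side comp25250_c0 had 3 counts in pupae and 182 in males, comp29553_c0 had 44 and 1231, and comp27454_c0, not called with deposited FPKM, had 33 and 211. The third ratio towards pupae, comp23842_c0, was 2.25-fold (1.89 to 2.67) and was not called.

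Immune genes are switched on by microbes through pattern recognition receptors, and their products include antimicrobial peptides. Of the 7 immune unigenes tested, 4 were called higher in males (6.29% of all unigenes were) and 0 higher in pupae (6.0%), with a median log2 ratio of -3.18. The antimicrobial peptide DEFC (comp15765_c0, a defensin) had 6 counts in pupae and 2066 in males, 273-fold higher in males (125 to 745). It had 3 counts in eggs and in larvae, 13968 in mated females and 1788 in the library labelled female, so all adult libraries were far above the immature stages. AttA (comp23040_c0), an attacin, had 4 counts in pupae and 253 in males, 50.2-fold (19.4 to 186), and PGRP-SB1 (comp26036_c0), a peptidoglycan recognition protein, had 36 and 528. GNBP3 (comp27748_c0), which recognises fungal cell walls, went the other way without passing 4-fold, at 211 CPM in pupae and 76.1 in males, 2.77-fold (2.54 to 3.02). The hemocyte gene Hml was 2.10-fold higher in pupae (1.85 to 2.38).

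Sense organs and the nervous system are assembled in the pupa and used in the adult. Of 7 odor and taste unigenes 4 were tested, and 2 were called higher in males (6.29% of all unigenes) and 0 in pupae (6.0%). PBP5 (comp14572_c0), a pheromone-binding protein relative, was at 11.1 CPM in pupae and 62.8 in males, 5.67-fold higher in males (4.53 to 7.18). Snmp (comp27744_c0), a membrane protein of olfactory neurons, had 18 and 140 counts, 6.17-fold (3.76 to 10.7) but not called with deposited FPKM, and the odorant-binding protein OB99A (comp14871_c0) had 8 and 65. Both vision unigenes were higher in males by less than the 4-fold limit on the (CPM + 1) scale. For rdgB (comp29770_c0), a lipid transfer protein of photoreceptors, counts were 125 and 421, and for ninaD (comp23307_c0), a receptor for carotenoid uptake, they were 11 and 81. Only 3 of 12 neuronal receptor and channel unigenes held enough counts. Ork1 (comp29537_c0), a potassium leak channel, had 37 in pupae and 269 in males, 5.77-fold higher in males (4.08 to 8.37) and called, though not with deposited FPKM, while the acetylcholine receptor subunit nAcRbeta-21C (comp24214_c0) was at 21.9 and 18.3 CPM.

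Axonemal dyneins drive sperm tails and the cilia of mechanosensory neurons. Of 10 axoneme unigenes 5 were tested and 1 was called, higher in males, as were 6.29% of all unigenes. It was DYH7 (comp14849_c0), a dynein heavy chain, with 46 counts in pupae and 311 in males, 5.36-fold (3.93 to 7.48), 0 in mated females and 288 in the library labelled female. PIH1D3 (comp14861_c0), an assembly factor of dynein arms, had 43 and 208 counts, and DNAL4 (comp14935_c0), a light chain, had 31 and 72. These 3 unigenes had 0, 0 and 2 counts in mated females, so counts in pupae and males stood against almost none there. The other 7 unigenes of the list had at most 10 counts in males.

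**Figure D4:**
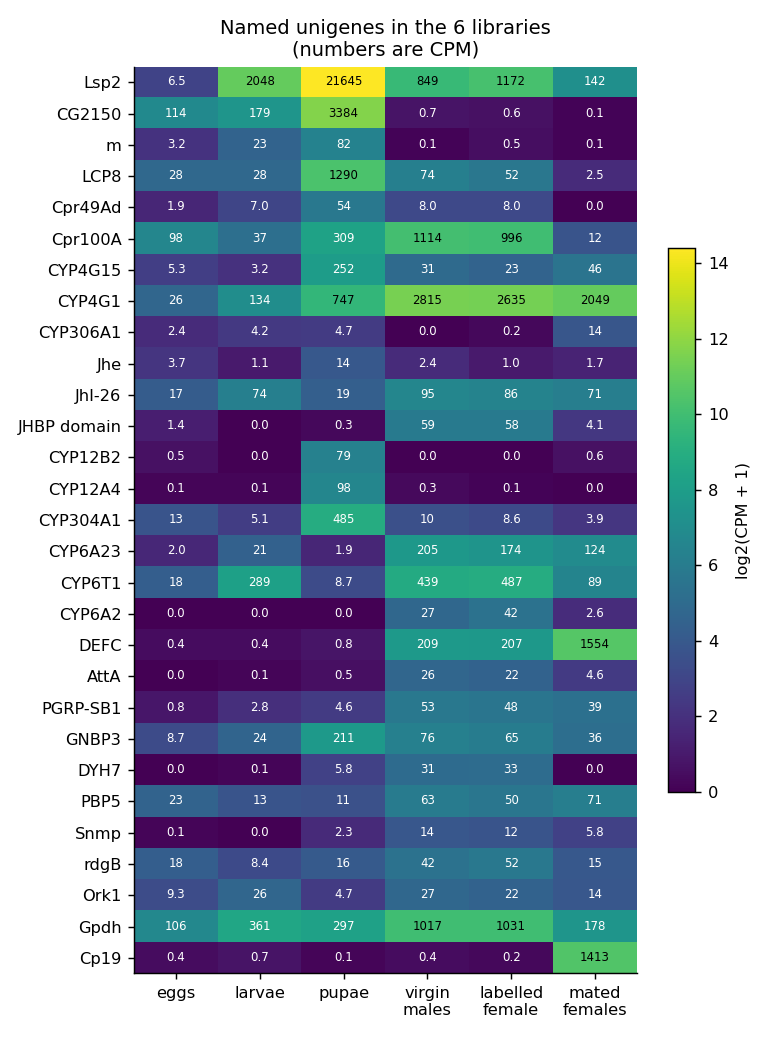
CPM of 29 named unigenes (rows) in the 6 libraries (columns), with colour giving log2(CPM + 1) and the number in each cell the CPM. The Lsp2 row shows 21645 CPM in pupae against 849 in males, and the DEFC row shows 0.764 CPM in pupae against 209 in males.

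All 8 respiration unigenes were lower in pupae, with log2 ratios from -1.77 to -0.41 and a median of -0.90, and 0 of them passed 4-fold. Gpdh (comp28812_c0), the glycerol phosphate dehydrogenase that serves flight muscle, was at 297 CPM in pupae and 1017 in males, 3.42-fold higher in males (3.27 to 3.58), and at 178 CPM (1596 counts) in mated females. COX5B (comp14319_c0), a subunit of cytochrome c oxidase, was 2.25-fold higher in males (2.17 to 2.33), and IDH1 (comp14690_c0), an isocitrate dehydrogenase, 2.49-fold (1.92 to 3.27). Muscle, which shares the list's direction, was represented by Mf alone, 1.80-fold higher in males (1.75 to 1.85). Whether the amount of muscle tissue moves these values was not tested.

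The remaining lists held few tested members. Of 10 gut unigenes 3 were tested and 0 were called. AMPM (comp14560_c0), a membrane aminopeptidase of the gut surface, had 1836 counts in pupae and 9055 in males, 3.91-fold higher in males (3.72 to 4.12), and larvae held 15647. The other gut unigenes tested had few counts and opposite directions, TRY4 (comp14410_c0), matched to a trypsin, with 28 in pupae and 8 in males and PE1 (comp14477_c0), matched to a peritrophin, with 0 and 22, and both were named after their values were seen. Of 12 patterning and cell contact unigenes 4 were tested, and none was called. Each was higher in pupae, by log2 ratios from 0.33 to 1.03. The only one with 50 counts was ESM3 (comp14673_c0), a repressor of transcription that acts downstream of Notch, 1.92-fold higher in pupae (1.37 to 2.72). Others rested on few counts, such as DSCL (comp10764_c0) with 6 in pupae and 4 in males and DS (comp10782_c0) with 8 and 4. Their fold intervals, 0.448 to 9.11 and 0.675 to 11.4, include equal levels, and both were named after their values were seen. Among histones, H1 (comp14839_c0) had 62 counts in pupae and 356 in males and was called, H4 (comp16422_c0) was 1.77-fold higher in pupae (1.70 to 1.85) and H3 (comp15348_c0) had 5 and 9 counts. These histones match many D. melanogaster copies, so the reads of copies are pooled.

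In flies sex is fixed by a splicing chain that ends in dsx, whose male and female transcripts differ, and the msl genes act in dosage compensation of males. None of the 5 sex determination unigenes tested was called. The gene dsx (comp25690_c0) was 2.62-fold higher in males (2.12 to 3.24), msl-1 (comp27436_c0) 1.83-fold (1.41 to 2.38) and msl-3 (comp29813_c1) 1.77-fold (1.55 to 2.02), and tra-2 (comp23083_c0) stood at 26.6 CPM in pupae and 23.6 in males. The isoforms of dsx separated the libraries more than its total. Isoform seq1 took 48.7% of the 118 dsx counts in pupae (Wilson interval 39.5 to 57.2), 0.203% of 389 in males, 55.8% in mated females and 1.28% in the library labelled female. Isoforms seq5 and seq6 together carried most of the male counts, at 32.3% and 54.1%, and made up 9.88% and 30.3% in pupae but 0.312% and 1.45% in mated females. Pupae therefore held, side by side, an isoform almost absent from males and a pair almost absent from mated females.

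Across the transcriptome, 2297 unigenes had 2 or more isoforms and at least 200 counts in each library, and in 326 of them (14.2%) an isoform differed in its share by at least 30 percentage points. The median of the largest difference per unigene was 12.2 points. In 244 of the 326 the total of the unigene differed less than 2-fold between pupae and males, and in 26 it differed 4-fold or more. In the library labelled female, the isoform concerned lay within 10 points of its male share in 200 of the 326, with a median distance of 6.20 points. The label of this library is in doubt, so closeness to males there need not hold for adult females. Shares in mated females were not counted here. In the other 126 the virgin adult libraries lay more than 10 points apart, and how steadily RSEM divided reads between similar isoforms was not tested.

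In some unigenes pupae and males lay far apart while both virgin adult libraries gave nearly the same share. Whether stage or sex underlies these differences was not tested. In comp24387_c0 (FBgn0029801), isoform seq2 took 93.6% of 14162 counts in pupae (93.2 to 94.0), 8.37% in males (6.98 to 10.1), 7.22% in the library labelled female and 3.79% in larvae. Isoform seq3 of this unigene kept similar counts throughout, 710 in pupae, 1126 in males, 813 in larvae and 870 in eggs, so the pupal excess was in seq2 and, with 190.2 counts against 8.42, in seq4. In comp28607_c0 (FBgn0004034), seq5 took 99.9% in pupae and 5.46% in males, where seq4 took 76.4%. In comp29186_c1 (FBgn0039217), seq2 took all counts in eggs and larvae and 97.5% in pupae, and seq1 all counts in the adult libraries. In comp28555_c2 seq2 went from 88.2% in pupae to 1.04% in males and 0.810% in the library labelled female, but took 26.4% in mated females. In comp27147_c0 seq2 took 93.9% in pupae and 0 counts in every other library. In comp26553_c0 seq9 took 91.7% in pupae, 5.68% in males and 10.7% in the library labelled female. It took 22.6% in mated females, 20.2% in larvae and 94.1% in eggs, so it was not confined to pupae.

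Not all of the largest differences were of this kind. In comp26226_c0, seq12 took all 339 counts in pupae and none in males, but 67.9% in the library labelled female. In comp29137_c2, seq3 took 95.3% in males, 0 in pupae and 39.9% in the library labelled female. Adult libraries that were otherwise close thus disagreed in these 2 unigenes as much as pupae and males did in many others.

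**Figure D5:**
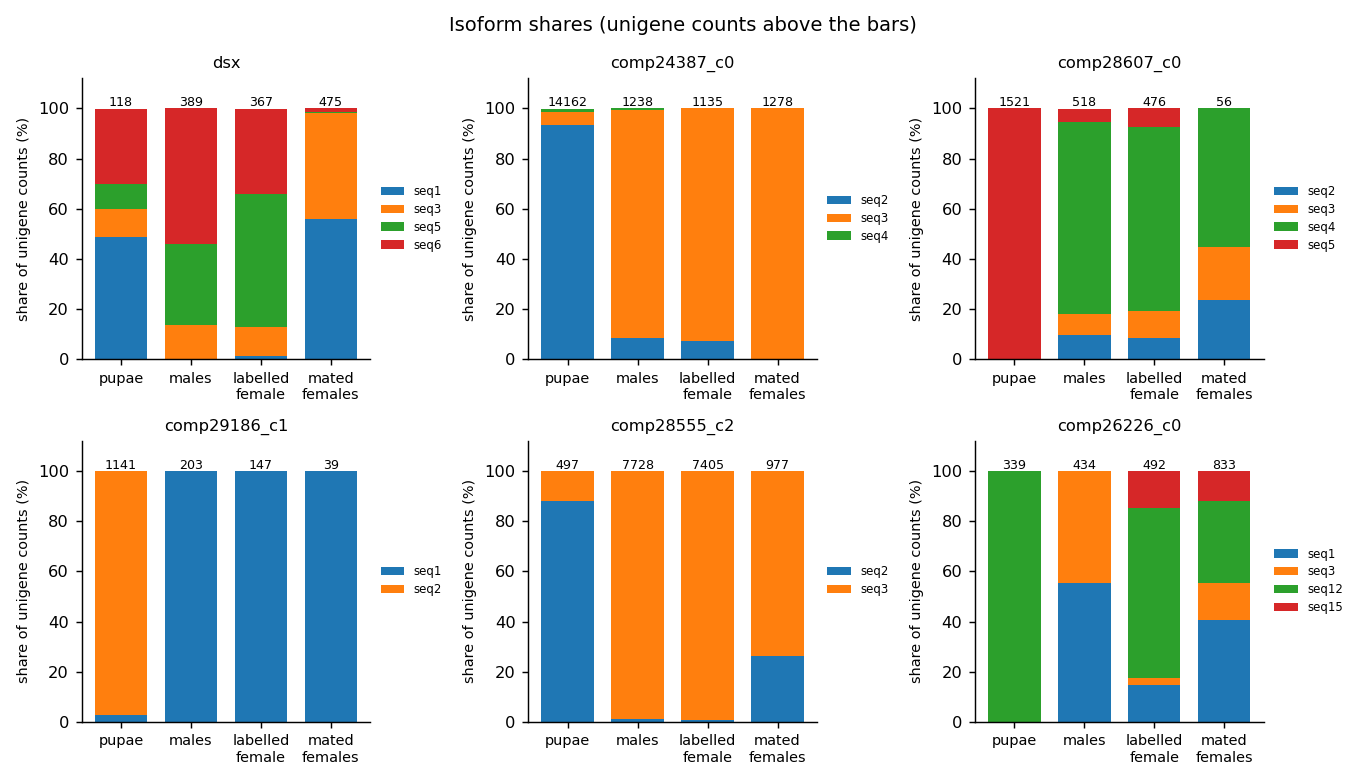
Share of the unigene's expected counts (y axis, percent) taken by each isoform (colours) in 4 libraries, for dsx and 5 of the unigenes with the largest differences, with the unigene's counts above each bar. The virgin adult bars match closely in comp24387_c0, comp28607_c0, comp29186_c1 and comp28555_c2, but not in comp26226_c0.

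Several detoxification unigenes were among the 326. Of 6 UGT unigenes tested 4 were called (against 14.2% of all unigenes), of 17 P450 unigenes 4, and of 13 GST unigenes 1. A further list held orthologs of D. melanogaster genes that respond to the stress pathway of CncC and Keap1. Of its 32 unigenes tested 1 was called, and this list was added after the values were seen. In the UGT comp28410_c0, seq2 took 76.0% in pupae, 3.37% in males and 2.36% in the library labelled female. In the UGT comp27709_c0, seq4 took 61.2%, 6.61% and 7.10% in the same order, with near-equal totals of 2632 and 2634 counts in pupae and males. In CYP6A13 (comp28541_c0), seq14 had no counts in pupae and took 51.5% in males and 49.3% in the library labelled female. Another UGT, comp23842_c0, gave an unsteady value, with 35.2% for seq1 in pupae, 0 in males and 39.1% in the library labelled female. The UGT and P450 isoforms named in this paragraph were picked out after their values were seen.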

How the data were processed

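Whole-animal total RNA was prepared with the TruSeq kit and sequenced as paired reads on an Illumina GAIIx. The authors filtered reads on quality and built 1 Trinity assembly from all libraries. They removed transcripts of very low abundance or with a very small part of their gene's expression, and retained contigs holding an open reading frame. Transcripts removed this way do not enter the isoform shares. Each library was mapped to the rest with bowtie and abundance estimated by RSEM (Bowtie 0.12.7 and RSEM 1.2.0 in the submitters' processing notes). The paper names an earlier RSEM version for the abundance of each library. They deposited expected counts, not normalized, and TMM normalized FPKM, for 10799 unigenes and 20666 isoforms. The deposited FPKM is 0 in every library for 1203 unigenes without egg counts, so the expected counts were used, scaled by column totals. Columns without a sample numbered 0. None of the unigene IDs occurs among 17486 RefSeq genes supplied (0 matches), so no sequence is shown.

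Log2 ratios used a pseudocount of 1 CPM. Ratio intervals are exact conditional binomial and share intervals Wilson, at 95%, from counts rounded to whole numbers, with counts under 0.5 taken as 0. Named were all members of lists of up to 5, the 3 largest ratios each way of longer lists (at least 50 counts in the higher library), the 5 unigenes with the most counts per library, the 8 largest ratios each way (at least 200 counts), the 8 largest isoform differences and dsx. Only part of the study's FlyBase and Swiss-Prot tables was used here, which gave 3767 unigenes a FlyBase ID. The CncC and Keap1 list and the P450 families were added after the values were seen. Members and lists were chosen with earlier results of these data known. Python 3.11.15, numpy, pandas, scipy and matplotlib were used.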

Additional observations from a re-analysis of the deposited data

How the results depend on the processing

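With 1 library per stage, neither the spread between pools nor a sex ratio in the pupal pool enters any value. No paired analysis was possible because each stage has 1 library. The counts of 573 and 601 unigenes stayed within 1.5 times with TMM factors (0.923 in pupae and 0.929 in males) and with median-of-ratios factors. The same held for other filters, thinning of male counts and a pseudocount of 0.1 CPM (760 and 883). It also held for a whole interval past 4-fold, taken without the pseudocount, and for deposited FPKM. The interval gave 576 and 489, of which 533 and 473 were shared with the counts as reported. Deposited FPKM gave 476 and 402, of which 456 and 391 were shared. The counts moved with the fold itself, to 1305 and 1731 at 2-fold and 352 and 248 at 8-fold. Requiring 50 counts left 50 of the 79 unigenes found in males and not in pupae. The 326 isoform differences, of 2297 unigenes tested, became 500 of 3016 with 100 counts required and 132 of 1246 with 500 counts required. Among the same 2297 they were 643 at 20 points and 102 at 50 points.

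Of 89 unigenes named for their levels, 22 were called higher in pupae and 28 higher in males, and these calls held with TMM factors and with the smaller pseudocount. With FPKM 19 of the 22 and 19 of the 28 were kept, and 9 of the 89 are listed at an FPKM of 0. With FPKM the P450 median log2 ratio was -0.15 in place of -0.74, and that of immune unigenes 0.00 in place of -3.18. Unigenes listed at an FPKM of 0, such as CYP6A2 and AttA, enter these medians as 0. With FPKM the log2 ratio was -7.35 for DEFC, -3.35 for PGRP-SB1 and 1.46 for GNBP3. Calls not kept with FPKM were, towards pupae, CYP306A1, Jhe and the UGT comp19619_c0, and, towards males, Ork1, Snmp, the UGTs comp27454_c0 and comp25250_c0, DYH7, CYP6A2, AttA, comp24262_c0 and the GST comp30232_c1. For comp19619_c0, comp25250_c0, DYH7, CYP6A2, AttA, comp24262_c0 and comp30232_c1 the FPKM is listed at 0.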

Other observations

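A list of 141 unigenes, orthologs of D. melanogaster genes that respond to the stress pathway of CncC and Keap1, was added after the data were seen. Of these, 137 were tested, 16 were called higher in pupae and 23 higher in males, beside 6.0% and 6.29% of all unigenes, with a median log2 ratio of -0.38. Towards pupae, behind CG2150, stood CG9360 (comp26499_c0) with 2764 counts in pupae and 29 in males, and CG30427 (comp26674_c0) with 1965 and 71. Towards males, CG11892 (comp26081_c0) had 18 counts in pupae and 1599 in males, CG10514 (comp20920_c0) had 61 and 2103, and CG10513 (comp28429_c0) had 9 and 545. All 3 of these were also present in larvae, with 1026, 924 and 345 counts.

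Single unigenes from the part of the study's Swiss-Prot annotation used here also stood apart. A lipocalin whose best match was apolipoprotein D (comp16351_c0) had 38 counts in pupae, 1066 in males and 3997 in mated females. The unigene comp14531_c0 had 1374 counts in pupae and 0 in males, and comp15657_c0, whose best match was the Notch ligand delta-like protein C, had 144 and 1. A unigene whose best match was a viral genome polyprotein (comp15339_c0) had 824 counts in males and 0 in eggs, larvae and pupae. Mated females held 6 and the library labelled female 825. Whether these virgin adults carried a virus was not tested. All unigenes of this paragraph were picked out after their values were seen.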
